A study of Homo sapiens with 12 samples.

Results

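The genes described here are 10 components of death receptor signalling, the receptor-driven (extrinsic) route into apoptosis: the receptors TNFRSF10A, TNFRSF10B, TNFRSF10D, FAS, TNFRSF1A, TNFRSF21 and TNFRSF12A, the adaptor FADD, the initiator protease CASP8 and its inhibitor CFLAR. They were taken by gene name from a table of 20771 genes counted in 12 RNA sequencing libraries. All 10 were found, and all 10 were among the 16515 genes that passed the filter on low counts.

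The study asked which genes change when Ewing sarcoma cells lose RRM1, the catalytic subunit of ribonucleotide reductase, which supplies the deoxyribonucleotides for DNA replication. EW8 and TC71 are human cell lines from Ewing sarcoma, a bone and soft tissue cancer driven in most cases by the EWS-FLI fusion. In both, the endogenous RRM1 gene was knocked out with CRISPR/Cas9 under hygromycin selection, and a codon-optimized RRM1 transgene switched on by doxycycline kept the cells growing. The lines were grown in DMEM with 10% FBS, and polyadenylated RNA was sequenced from 3 libraries labelled 0 h and 3 labelled 48 h in each line. By the study's account, 0 h stands for cells kept in doxycycline and 48 h for cells without it for that time. All 4 groups therefore carry the knockout and the transgene, and differ in cell line and in doxycycline. The knockout lines were cloned from single cells, and the labels do not say whether the libraries of a line came from 1 clone. Doxycycline withdrawal and the lapse of time in culture cannot be told apart from the labels. No label states that replicates were separate cultures, so the p-values measure the spread between these libraries, which may be technical.

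The libraries held between 18468485 and 35698991 counts. The share of mitochondrial counts was 3.80% to 4.09% in EW8 at 0 h and 3.05% to 3.54% in the EW8 libraries labelled 48 h, and in TC71 it was 4.20% to 5.11% and 2.68% to 3.99%. Genes typical of Ewing sarcoma were present in every library, with 6 of 6 measured and a summed level of 661 to 768 CPM (counts per 1000000 counts, with libraries scaled by TMM). The sum hides single genes that moved in opposite directions. In EW8 the mean of FLI1 went from 115 CPM at 0 h to 70.2 CPM at 48 h. That of CD99 went from 334 to 244 CPM there, and that of NR0B1 from 78.9 to 156 CPM. In TC71 FLI1 went from 104 to 78.0 CPM, CD99 from 315 to 313 CPM and NR0B1 from 81.3 to 93.0 CPM. CCK was the lowest of them, between 0.307 and 2.67 CPM. Of 4 leukocyte markers 2 were measured, with at most 5 counts in any library, and of 3 endothelial markers 1 was measured, with at most 6 counts. Of 4 epithelial markers 3 were measured, and their summed level went from between 6.92 and 9.39 CPM at 0 h to between 21.4 and 23.2 CPM at 48 h in EW8, and from between 71.1 and 73.1 CPM to between 98.4 and 111 CPM in TC71. The share of mitochondrial counts, the share in the 50 highest genes, the epithelial markers and single Ewing sarcoma markers such as FLI1 thus moved with the condition. Their part in the results below was not tested. The 3 muscle markers were not analysed here.

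Death receptors are members of the tumour necrosis factor receptor family that carry a death domain inside the cell. When a ligand such as TRAIL or FAS ligand clusters them, the death domain recruits FADD, and FADD recruits pro-caspase-8, which is activated by being brought close together. CFLAR (c-FLIP) resembles caspase-8 without its protease activity and competes for the same place. Active caspase-8 cleaves the executioner caspases and BID, which links the receptors to the mitochondrial route.

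RRM1 itself was counted first, since it is the targeted gene. Its level in EW8 was 9.37, 9.51 and 9.67 CPM at 0 h and 63.9, 72.6 and 74.1 CPM at 48 h. TC71 had 15.7, 15.5 and 17.3 CPM, then 25.7, 26.4 and 24.1 CPM. The counts of the endogenous gene were thus higher in the libraries labelled 48 h, by 2.88 ± 0.07 on the log2 scale in EW8 (SE, n = 3 in each group, edgeR's quasi-likelihood test, adjusted p = 3.37e-27). The TC71 difference was 0.65 ± 0.07 (adjusted p = 2.91e-09). A codon-optimized transgene has another sequence than the endogenous transcript, so these counts do not check whether RRM1 was lost, and the direction of each difference below rests on the labels.

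Changes were tested with edgeR's quasi-likelihood test in 1 fit over all 12 libraries, with p-values adjusted by Benjamini-Hochberg over all 16515 genes. A gene is said to have risen or fallen when its adjusted p was below 0.05, and is called when its fold change was also above 2. In EW8, 6 of the 10 genes rose (TNFRSF12A, FAS, CASP8, TNFRSF10B, CFLAR and TNFRSF21) and 2 fell (TNFRSF10D and TNFRSF10A). Of all genes tested in EW8, 37% rose and 31.6% fell by the same criterion, 68.6% in all. In TC71, 4 rose (TNFRSF12A, FAS, FADD and CASP8) and the same receptors TNFRSF10D and TNFRSF10A fell, where 22.9% of all genes rose and 19.2% fell, 42.1% in all. TNFRSF12A and FAS were the members called in each line, both upward, and no member was called downward. Of all genes, 17.2% were called in EW8 (13.9% higher, 3.35% lower) and 4.12% in TC71 (3.26% higher, 0.854% lower). All 3 libraries at 48 h lay above all 3 at 0 h for 6 members in EW8 and below them for 2, against 37.9% and 33.2% of all genes (71.1% in all). In TC71 the groups were apart in this way for 4 members upward and 2 downward, against 25.9% and 23.7% of all genes (49.6% in all). The median log2 fold change of the 10 genes was 0.29 in EW8, where that of all genes was 0.03, and 0.06 in TC71, where that of all genes was -0.00. In RNA from whole cultures, fewer cells that express a gene and less of its RNA per cell cannot be told apart.

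**Figure D1:**
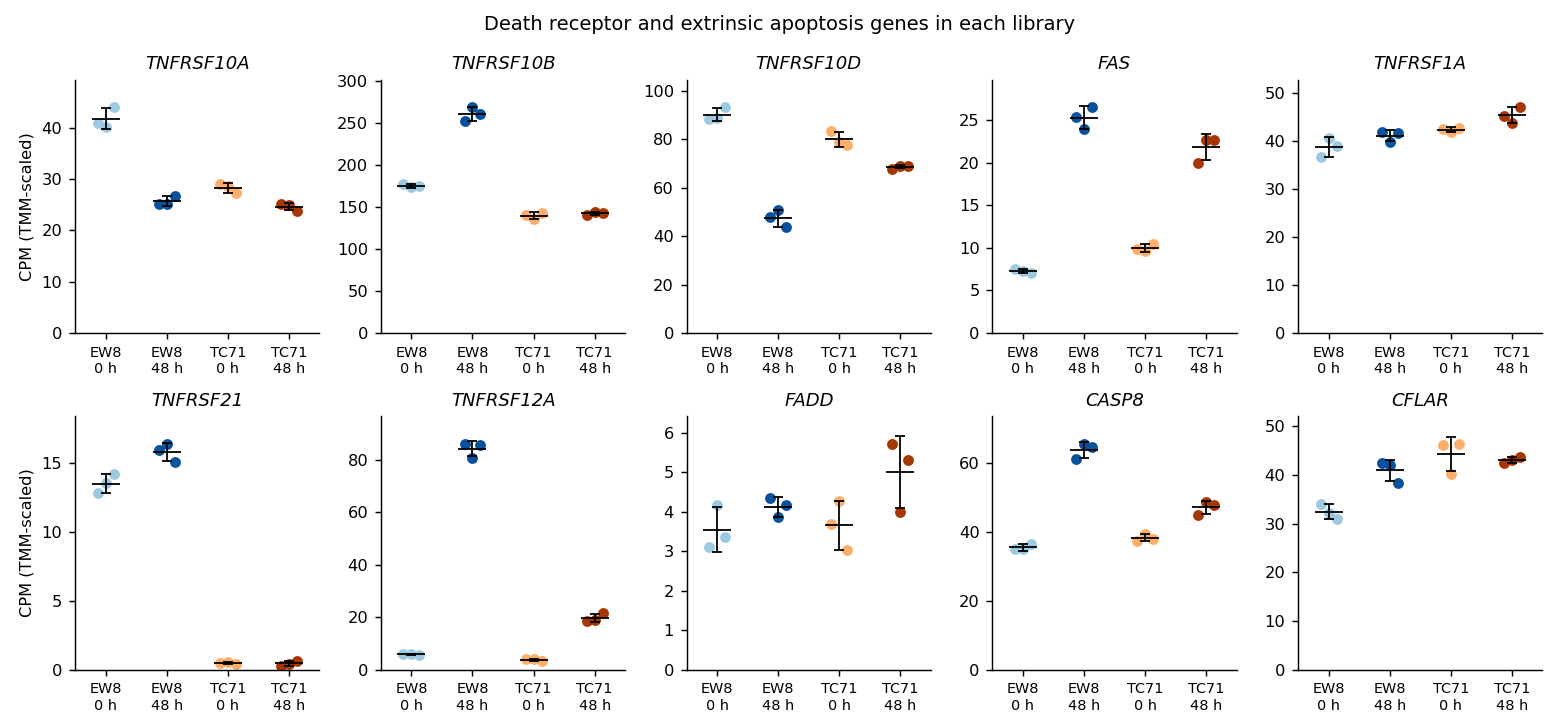
Level of each of the 10 genes in CPM (y axis, from 0, TMM-scaled) in the 4 groups (x axis); each point is 1 library, the horizontal line is the mean and the bars are 1 SD (n = 3). TNFRSF12A and FAS stood higher at 48 h in both lines, and TNFRSF21 was near 0 in all TC71 libraries.

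TNFRSF12A, also called Fn14, is the receptor for the cytokine TWEAK and has a short cytoplasmic tail that binds TRAF proteins and lacks a death domain. It showed the largest response of the 10 genes in both lines. In EW8 it stood at 6.09, 5.84 and 5.79 CPM at 0 h and at 86.2, 80.9 and 85.6 CPM at 48 h. In TC71 it stood at 4.13, 3.92 and 3.48 CPM at 0 h and at 18.7, 19.1 and 21.6 CPM at 48 h. Every library labelled 48 h was above every library labelled 0 h in its line, and the EW8 libraries at 48 h were above all others. The log2 fold change was 3.83 ± 0.07 in EW8 (14.3-fold, adjusted p = 4.30e-30) and 2.36 ± 0.09 in TC71 (5.15-fold, adjusted p = 1.06e-20). Ranked from the highest change, TNFRSF12A was gene 131 of 16515 in EW8 and gene 78 of 16515 in TC71. The gene has 4 exons and lies on chromosome 16 (3018445 to 3022383, plus strand, GRCh38, GENCODE release 44).

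FAS (CD95), the receptor for FAS ligand, was the other called gene. Its level was 7.58, 7.28 and 7.05 CPM in EW8 at 0 h and 25.4, 24.0 and 26.6 CPM at 48 h. The TC71 libraries had 9.83, 9.66 and 10.5 CPM at 0 h and 20.04, 22.7 and 22.7 CPM at 48 h. The groups did not overlap in either line. The log2 fold change was 1.80 ± 0.08 in EW8 (3.48-fold, adjusted p = 1.35e-19) and 1.13 ± 0.08 in TC71 (2.18-fold, adjusted p = 7.17e-14), with a 95% interval in TC71 of 0.97 to 1.28, which includes the 2-fold threshold. When the 2-fold threshold was placed inside the test, the TC71 value was no longer past it (adjusted p = 0.996). FAS lies on chromosome 10 (88953813 to 89029605, plus strand), and a long noncoding gene and ACTA2, both on the other strand, cover 6.48% and 1.32% of its exon bases.

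TRAIL binds 4 receptors on the cell surface: TNFRSF10A (DR4) and TNFRSF10B (DR5) carry a working death domain, TNFRSF10D (DcR2) has a truncated one, and TNFRSF10C (DcR1) has none, so that the last pair act as decoys. Their genes are neighbours on chromosome 8, from 23020133 to 23225102. The 3 of them that are members moved in different directions in EW8, and TNFRSF10B rose while both others fell.

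TNFRSF10B was at 178, 173 and 175 CPM in EW8 at 0 h and at 252, 269 and 260.2 CPM at 48 h. The groups did not overlap, and the gene rose by 0.57 ± 0.04 on the log2 scale (1.49-fold, adjusted p = 6.99e-15). In TC71 its level was 140.4, 136 and 143 CPM, then 141, 145 and 142 CPM. Those ranges overlapped, and the log2 difference of 0.03 ± 0.04 (adjusted p = 0.62) had a 95% interval of -0.05 to 0.11.

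TNFRSF10D was at 88.4, 89.0 and 93.5 CPM in EW8 at 0 h and at 48.0, 50.7 and 43.8 CPM at 48 h. TC71 started lower, at 83.7, 79.1 and 77.5 CPM, and ended at 68.0, 69.2 and 69.0 CPM. It fell in both lines with no overlap between groups, by 0.93 on the log2 scale in EW8 (SE 0.05, adjusted p = 3.31e-17). In TC71 the level fell by 0.22 (SE 0.05, adjusted p = 4.82e-04). Counted from the lowest change in EW8 it was gene 769 of 16515.

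TNFRSF10A was at 41.0, 40.2 and 44.04 CPM in EW8 at 0 h and at 25.1, 25.2 and 26.8 CPM at 48 h. The TC71 levels were 29.0, 28.6 and 27.2 CPM, then 25.1, 24.9 and 23.8 CPM. Its log2 level fell by 0.70 in EW8 (SE 0.06, adjusted p = 1.75e-12). The fall in TC71 was smaller, and it fell by 0.20 there (SE 0.06, adjusted p = 0.00697), again without overlap. The antisense genes TNFRSF10A-DT and TNFRSF10A-AS1 cover 9.09% and 7.65% of its exon bases, and reads of both strands cannot be separated here because the strand setting of the counting is not stated.

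To set the TRAIL receptors side by side within a library, CPM was divided by the length of the canonical transcript and each receptor's share of the sum was taken. TNFRSF10B held 47.0% ± 0.533 (SD, n = 3) in EW8 at 0 h and 68.5% ± 0.373 at 48 h. TNFRSF10D went from 27.4% ± 0.706 to 14.1% ± 0.895, and TNFRSF10A from 16.6% ± 0.690 to 10.0% ± 0.489. In TC71, TNFRSF10B held 48.2% ± 1.31 and then 52.4% ± 0.400, and TNFRSF10D 31.2% ± 0.791 and then 28.6% ± 0.0637. The rank order of the receptors was the same in all 4 groups, and the EW8 libraries at 48 h had the highest TNFRSF10B share. TNFRSF10C held the smallest share in every group, between 5.62% and 8.98% on average, and 20.4% of its stretches of 100 bases also occur in other annotated genes, so its counts are uncertain. These shares are a description, with no test.

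**Figure D2:**
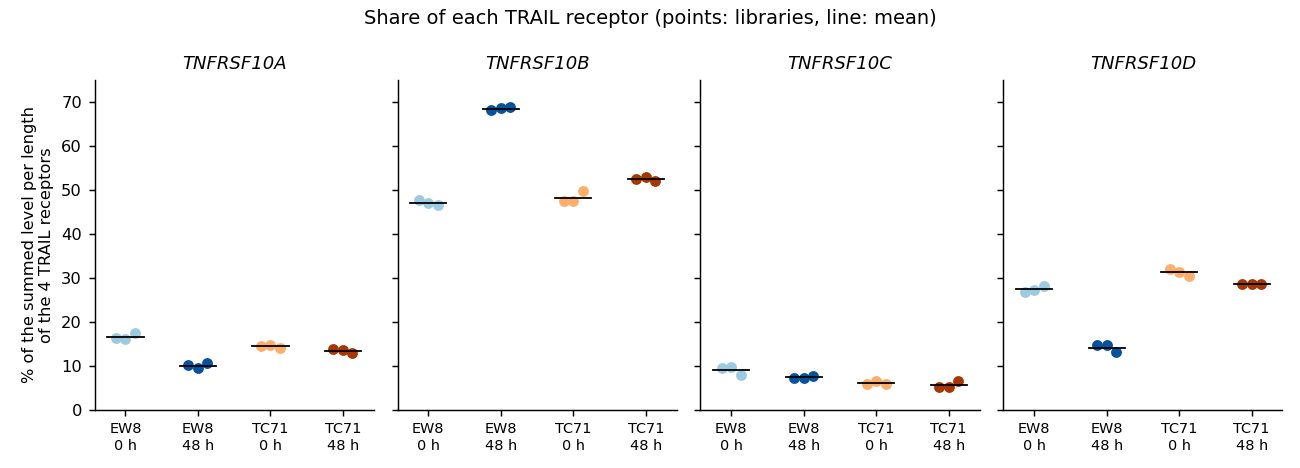
Share of each TRAIL receptor (y axis, % of the summed CPM per kb of the 4 receptors) in the 4 groups (x axis), with 1 point per library and a line at the mean. TNFRSF10B took 68.5% in EW8 at 48 h and between 47.0% and 52.4% in the other groups.

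The ratio of TNFRSF10B to TNFRSF10D counts does not depend on how libraries are scaled. Its log2 value in EW8 was 1.01, 0.96 and 0.90 at 0 h and 2.39, 2.41 and 2.57 at 48 h, a difference of 1.501. The TC71 values were 0.75, 0.78 and 0.89, then 1.05, 1.06 and 1.05, a difference of 0.25. Neither line's groups overlapped, and the exact two-sided permutation test gave p = 0.1 in each, which is the smallest p that 3 against 3 libraries allow.

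TNFRSF1A (TNFR1), the main receptor for TNF, passed the test in neither line. It stood at 36.6, 40.7 and 38.9 CPM in EW8 at 0 h and at 42.0, 39.8 and 41.6 CPM at 48 h, and at 42.6, 41.8 and 42.7 CPM, then 45.1, 43.8 and 47.1 CPM, in TC71. The log2 difference was 0.09 ± 0.06 in EW8 (adjusted p = 0.155, 95% interval -0.02 to 0.20) and 0.10 ± 0.05 in TC71 (adjusted p = 0.138, interval -0.01 to 0.20), where the groups nevertheless did not overlap. With libraries scaled by total counts alone these became 0.21 (adjusted p = 0.00101) and 0.15 (adjusted p = 0.0219), on a scale on which the median of all genes in EW8 moved from 0.03 to 0.16. TNFRSF1A lies on chromosome 12 (6328757 to 6342114, minus strand).

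TNFRSF21 (DR6), a death domain receptor best known from neurons and lymphocytes, separated the lines rather than the conditions. Its counts in TC71 were 13, 12 and 10 at 0 h and 8, 11 and 21 at 48 h, or 0.305 to 0.649 CPM over the 6 libraries. In EW8 it was at 12.8, 13.5 and 14.2 CPM at 0 h and at 15.9, 16.4 and 15.1 CPM at 48 h. The rise in EW8 was 0.22 ± 0.09 (adjusted p = 0.0296). It was not past the threshold without EW8 0 h replicate 1, 2 or 3 or EW8 48 h replicate 1 or 2, with values of 0.15 to 0.23 and adjusted p of 0.0584 to 0.211. It also missed it with upper-quartile factors (0.18, adjusted p = 0.0709) and by DESeq2's Wald test (0.21, adjusted p = 0.082). In TC71 the difference of -0.07 ± 0.32 had an interval of -0.70 to 0.56, so that a change of up to about that size would not have been seen at this depth. TNFRSF21 lies on chromosome 6 (47231532 to 47309905, minus strand).

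FADD, the adaptor that joins receptor and caspase, had the lowest CPM of the intracellular members. It was at 3.11, 4.18 and 3.35 CPM in EW8 at 0 h and at 4.36, 3.86 and 4.16 CPM at 48 h, with overlapping groups and a log2 difference of 0.24 ± 0.16 (adjusted p = 0.182, interval -0.07 to 0.55). With libraries scaled by total counts alone this was 0.37 (adjusted p = 0.0471). For TC71 the values were 3.69, 4.27 and 3.02 CPM, then 5.73, 3.99 and 5.32 CPM. The groups overlapped there too, although the fitted rise of 0.47 ± 0.14 passed (adjusted p = 0.00873). Without TC71 0 h replicate 3 it was 0.35 (adjusted p = 0.0786), and without TC71 48 h replicate 1 it was 0.37 (adjusted p = 0.0572). An annotated gene on the other strand covers 59.2% of the exon bases of FADD, which has 2 exons on chromosome 11 (70203296 to 70207390).

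CASP8, the initiator caspase, rose in both lines. In EW8 it was at 35.0, 34.9 and 36.5 CPM at 0 h and at 61.0, 65.5 and 64.5 CPM at 48 h, a log2 change of 0.84 ± 0.05 (1.79-fold, adjusted p = 7.54e-16). The TC71 libraries went from 37.4, 39.3 and 37.9 CPM to 45.0, 48.6 and 47.7 CPM, a change of 0.30 ± 0.05 (1.23-fold, adjusted p = 1.77e-05). No library overlapped between conditions, and neither change reached 2-fold.

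CFLAR, the inhibitor, was at 34.1, 32.2 and 31.0 CPM in EW8 at 0 h and at 42.5, 42.0 and 38.4 CPM at 48 h. It rose by 0.34 ± 0.06 (adjusted p = 1.19e-05) with no overlap. TC71 libraries held 46.1, 40.2 and 46.5 CPM, then 42.4, 43.1 and 43.7 CPM, and the difference of -0.04 ± 0.06 (adjusted p = 0.594) had an interval of -0.16 to 0.07.

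The log2 ratio of CFLAR to CASP8 counts set the inhibitor against the protease within each library. It was -0.04, -0.12 and -0.23 in EW8 at 0 h and -0.52, -0.64 and -0.75 at 48 h, so its mean fell by 0.51. For TC71 it was 0.30, 0.03 and 0.30, then -0.08, -0.17 and -0.13, so its mean fell by 0.34. In each line all 3 libraries at 48 h were below all 3 at 0 h, and the exact two-sided permutation test again gave its smallest possible p of 0.1. A ratio shows that the 2 transcripts changed unequally, not how either changed alone.

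CFLAR (201116154 to 201176687), CASP10 (201182872 to 201229428) and CASP8 (201233443 to 201361836) follow each other on the plus strand of chromosome 2. RefSeq promoter windows on GRCh38.p14, from 250 bases before a start to 50 bases after it, were given for 6 of the 10 genes, with 13 windows in all. They were searched on both strands for AP-1 (TGAGTCA or TGACTCA), the cyclic AMP element CRE (TGACGTCA) and the NF-kB consensus by name, because the study followed AP-1. Matches of different motifs did not overlap. AP-1 letters were found in 2 of 3 CASP8 windows, starting at base -1 and base -61 from the start, against 4.949% of 35116 windows of all genes. They were in no other of the 13 windows. The NF-kB consensus was found in 1 of 4 CFLAR windows (base -97) and in 1 of 3 FAS windows (base -157), against 5.909% of all windows. It was in no other of the 13 windows. The FAS windows that begin at 88990548 and 88990664 overlap each other, so windows of a gene are not separate. No window of these genes held the CRE letters, which 1.848% of all windows held. If only the 250 bases before the start were read, the CASP8 match at base -1 was lost. The matches are printed with their neighbouring bases, so that the letters that the counts rest on can be seen, with the match in capitals and the plus strand of each region 5′ to 3′.
CASP8, AP-1, chr2:201260415-201260501: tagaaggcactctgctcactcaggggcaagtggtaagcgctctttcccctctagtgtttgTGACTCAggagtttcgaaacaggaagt
CASP8, AP-1, chr2:201258024-201258050: cttgttcgagTGAGTCAtctctgttct
CFLAR, NF-kB, chr2:201118609-201118638: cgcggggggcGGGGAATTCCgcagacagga
FAS, NF-kB, chr10:88991264-88991293: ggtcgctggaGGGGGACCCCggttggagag
In GENCODE, 2 of the 87 bases printed first are untranslated exon. For the other matches the share was taken over a longer stretch than the one printed. Around the other CASP8 match (chr2:201257974-201258040) 59 of 67 bases are untranslated exon. Around the CFLAR match (chr2:201118559-201118648) and the FAS match (chr10:88991214-88991303) 90 of 90 are. A match describes letters in a window. These files hold no measurement of a factor at these places, and the genes without a window (TNFRSF10A, TNFRSF10B, TNFRSF10D and TNFRSF12A) were not searched.

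**Figure D3:**
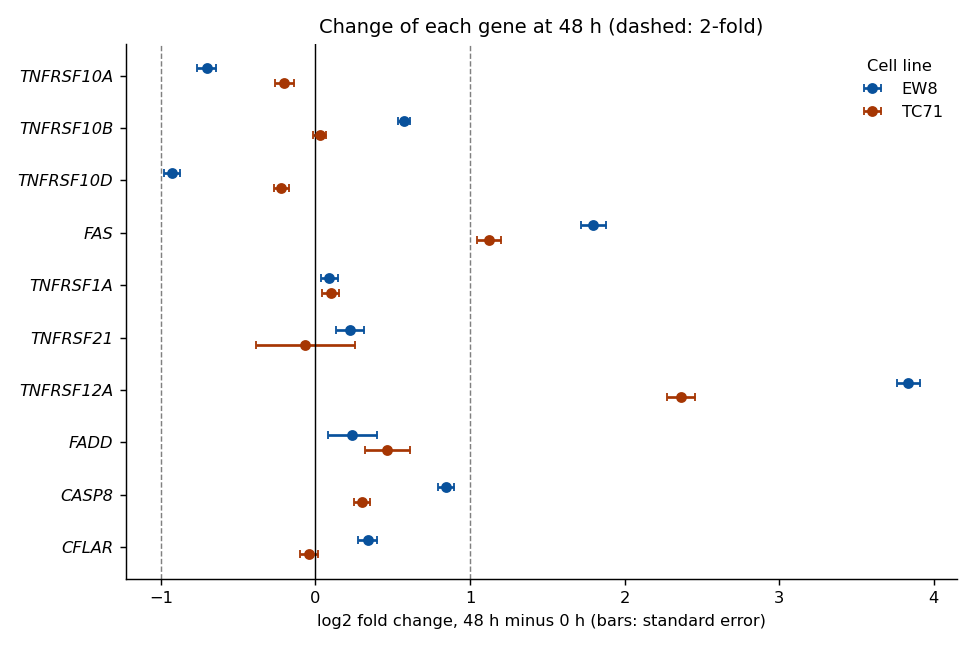
Log2 fold change from 0 h to 48 h (x axis) of each gene (y axis) in EW8 and TC71; points are the fitted values, bars the standard error, and dashed lines mark a 2-fold change. TNFRSF12A and FAS lie past the right dashed line in both lines, and the remaining genes lie between the dashed lines.

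The responses of EW8 and TC71 were compared by an interaction contrast, the log2 change in EW8 minus that in TC71. The difference passed for 7 of the 10 genes, 5 with the higher value in EW8 and 2 with the lower, where 25.7% and 22.4% of all genes did so, 48.1% in all. TNFRSF12A had the largest difference, 1.47 ± 0.13 (2.77-fold, adjusted p = 3.73e-11), and was the 1 member called, against 8.26% of all genes (7.28% higher, 0.981% lower). FAS differed by 0.67 ± 0.12 (adjusted p = 1.04e-05), TNFRSF10B by 0.55 ± 0.06 (adjusted p = 8.03e-10), CASP8 by 0.54 ± 0.08 (adjusted p = 2.88e-07) and CFLAR by 0.38 ± 0.08 (adjusted p = 3.43e-04). TNFRSF10D differed by -0.71 ± 0.07 (adjusted p = 6.90e-10) and TNFRSF10A by -0.50 ± 0.09 (adjusted p = 8.10e-06). For each of these 7 genes the change in EW8 was thus the larger of the pair in size. The difference did not pass for TNFRSF1A (-0.01, interval -0.16 to 0.14), TNFRSF21 (0.29, interval -0.37 to 0.95) and FADD (-0.23, interval -0.65 to 0.19).

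The lines were also compared at 0 h, before doxycycline was removed. This comparison uses the same 0 h libraries as the responses, so the values are not independent of them. TNFRSF21 was 4.77 ± 0.16 higher in EW8 on the log2 scale (27.3-fold, adjusted p = 3.41e-23), which made it gene 30 of 16515 from the highest, and it was the 1 member called (16.7% of all genes, 4.77% higher and 11.9% lower). By adjusted p alone, EW8 was higher in 5 of the 10 genes and lower in 3, where 32.8% of all genes were higher and 32.9% lower, 65.7% in all. The 0 h libraries of the lines did not overlap for 5 genes higher and 4 lower in EW8, against 34% and 34.3% of all genes, 68.3% in all. Apart from TNFRSF21, EW8 had more TNFRSF12A (0.62 ± 0.11), TNFRSF10A (0.57 ± 0.06), TNFRSF10B (0.33 ± 0.04) and TNFRSF10D (0.17 ± 0.05), and less FAS (-0.46 ± 0.09), CFLAR (-0.45 ± 0.06) and TNFRSF1A (-0.13 ± 0.05, adjusted p = 0.032). The TNFRSF1A difference was -0.09 (adjusted p = 0.224) without EW8 0 h replicate 1, and it also missed the threshold without EW8 0 h replicate 3 or TC71 0 h replicate 1 or 3, by DESeq2's Wald test (adjusted p = 0.0615) and with no filter on low counts (adjusted p = 0.0536). The TNFRSF10D difference was 0.04 (adjusted p = 0.469) when libraries were scaled by total counts alone, and 0.09 (adjusted p = 0.0822) with upper-quartile factors. CASP8 (-0.10, interval -0.21 to 0.00) and FADD (-0.06, interval -0.37 to 0.25) did not pass. The CASP8 difference did pass under 3 alternatives, with total counts alone (-0.24, adjusted p = 0.000205), with upper-quartile factors (-0.18, adjusted p = 0.00272) and with at least 10 counts in every library (-0.13, adjusted p = 0.0303).

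Per kb of the canonical transcript, TNFRSF10B was the most abundant of the 10 genes at 0 h in both lines, with 43.8 ± 0.586 CPM per kb (SD, n = 3) in EW8 and 35.0 ± 0.939 in TC71. TNFRSF10D followed with 25.5 ± 0.786 and 22.7 ± 0.900, and TNFRSF1A was the third with 17.8 ± 0.947 and 19.5 ± 0.216. In EW8 at 0 h the lowest 3 were CFLAR, FADD and FAS, with 2.22, 2.08 and 1.97 CPM per kb, and neighbours among them overlapped. In TC71 at 0 h the lowest was TNFRSF21 with 0.138 ± 0.0244. TNFRSF12A was the sixth in both lines at 0 h. At 48 h it was the highest in EW8, with 86.2 ± 2.99 CPM per kb against 65.2 ± 2.09 for TNFRSF10B, and the groups of libraries did not overlap. In TC71 at 48 h it had 20.3 ± 1.66, within the spread of its neighbours TNFRSF1A (20.9 ± 0.767) and TNFRSF10D (19.4 ± 0.184). The order depends on the transcript length assumed: over all annotated exons of each gene, TNFRSF10B stood above TNFRSF12A in EW8 at 48 h, and FAS ranked as the ninth or the tenth in every group.

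**Figure D4:**
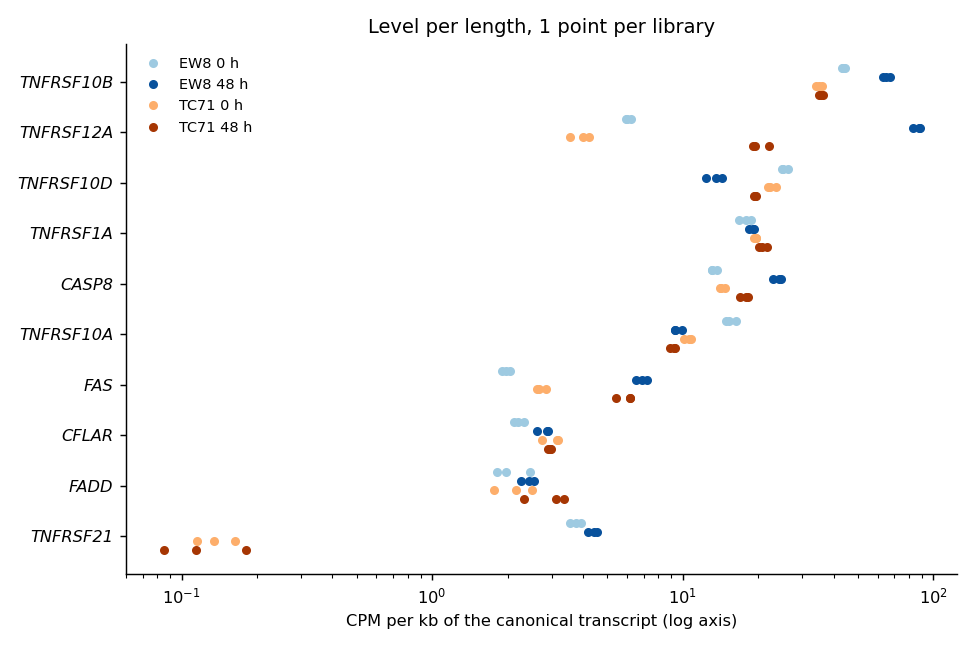
Level per length (x axis, CPM per kb of the canonical transcript, log scale) of each of the 10 genes (y axis), with 1 point per library and 1 colour per group. TNFRSF12A moved from 6.05 to 86.2 CPM per kb in EW8 and from 3.93 to 20.3 in TC71, and TNFRSF21 in TC71 lies far to the left of all others.

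A list of 43 further genes of the pathway gave the setting: ligands, other receptors and decoys, adaptors, inhibitors, executioner caspases with their mitochondrial link, and necroptosis genes. Of these, 35 were in the table and 31 passed the filter on low counts. The ligand genes FASLG, TNFSF12 and LTA and the receptor TNFRSF25 were below the filter, and TNFSF10, TNFRSF11B, TNFRSF6B, TNFRSF1B, EDAR, EDA2R, RIPK3 and ZBP1 were not analysed here. In EW8, 3 of the 31 were called and all 3 were higher, or 2 with at least 10 counts asked of every library, which leaves out TNF, while 13 passed upward and 13 downward by adjusted p alone. For TC71 the counts were 2 called, both higher, with 10 passing upward and 5 downward. With at least 10 counts asked of every library, which leaves out TNFSF15, 1 was called there. With the 2-fold threshold inside the test it was also 1. Of all genes, 17.2% were called in EW8, and 37% passed upward and 31.6% downward there. In TC71 4.12% of all genes were called, with 22.9% passing upward and 19.2% downward. The median log2 fold change over the 31 genes was 0.02 in EW8, against 0.03 over all genes, and 0.10 in TC71, against -0.00 over all genes. With genes at the counting floor placed at their bound or left out, the medians were -0.02 and 0.10, so that the sign of the EW8 median rests on the treatment of those genes.

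TNFAIP3 (A20), a ubiquitin-editing inhibitor of NF-kB signalling and a target of it, was called in both lines. It went from 11.3, 11.2 and 9.52 CPM to 65.7, 64.8 and 75.03 CPM in EW8 (log2 change 2.70 ± 0.07, adjusted p = 4.03e-26). In TC71 it went from 12.1, 11.8 and 11.4 CPM to 33.1, 35.5 and 36.5 CPM (1.57 ± 0.07, adjusted p = 2.95e-18). The responses of the lines differed by 1.13 ± 0.11 (adjusted p = 1.53e-10), with EW8 higher. Among 10 inhibitors and ubiquitin regulators the EW8 test passed upward for 7 and downward for 2, and the TC71 test for 4 and 1. The shares of all genes were 37% and 31.6% in EW8 and 22.9% and 19.2% in TC71. PEA15, which binds FADD and caspase-8, rose by 0.66 ± 0.05 and 0.44 ± 0.05, and XIAP, which blocks executioner caspases, fell by 0.13 in both lines (SE 0.05, adjusted p = 0.0365 and 0.0427). The XIAP groups overlapped in EW8.

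CASP10, the paralogue of CASP8 and its neighbour in the genome, went from 37.2, 34.8 and 37.8 CPM to 88.8, 95.7 and 96.5 CPM in EW8 (1.35 ± 0.06, adjusted p = 4.11e-21). In TC71 it went from 30.1, 28.5 and 30.6 CPM to 43.9, 47.2 and 49.6 CPM (0.66 ± 0.06, adjusted p = 2.44e-11). It was called in EW8 and rose by less than 2-fold in TC71.

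Of 9 adaptors and initiators, CASP10 was the 1 that rose in EW8, 7 fell and TRADD did not pass (-0.05, interval -0.30 to 0.20), where 37% of all genes rose and 31.6% fell. In TC71, 3 rose and 4 fell, where 22.9% and 19.2% of all genes did. DAXX, FAF1 and DEDD fell in both lines, DAXX by 0.57 and 0.11, FAF1 by 0.48 and 0.17, and DEDD by 0.52 and 0.17. The largest fall was that of TRAF3, which restrains non-canonical NF-kB signalling, by 0.81 on the log2 scale (SE 0.05, adjusted p = 5.02e-17). TRAF3 also fell by 0.22 in TC71 (adjusted p = 2.31e-04). TRAF2 fell by 0.51 in EW8 (adjusted p = 1.08e-05) and rose by 0.21 in TC71 (adjusted p = 0.0369), a difference between the lines of -0.72 ± 0.12 (adjusted p = 1.16e-05). The TRAF2 groups overlapped in TC71. RIPK1, the kinase that scaffolds the TNF receptor complex, fell by 0.15 in EW8 (adjusted p = 0.0109) and rose by 0.27 in TC71 (adjusted p = 2.44e-05), a difference of -0.42 ± 0.07 (adjusted p = 6.95e-06).

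The 7 executioner and mitochondrial genes included 3 that rose and 2 that fell in EW8, while TC71 had 2 that rose and 0 that fell. In EW8 these counts were close to the shares of all genes, 37% upward and 31.6% downward, and in TC71 the shares were 22.9% and 19.2%. CASP9, the initiator of the mitochondrial route, rose by 0.84 ± 0.08 in EW8 and by 0.35 ± 0.07 in TC71. CASP6 fell by 0.68 in EW8 (SE 0.09, adjusted p = 1.59e-08) and had -0.03 ± 0.07 in TC71. PARP1, the DNA repair enzyme that executioner caspases cleave, fell by 0.52 in EW8 (SE 0.04, adjusted p = 5.56e-15) and had -0.02 ± 0.03 in TC71.

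The ligands were near the counting limit. TNF had 1, 1 and 3 counts in EW8 at 0 h and 19, 13 and 25 counts at 48 h, and was called. It passed the filter on low counts only through that last group, where it was high, so its call follows in part from the filter. With the libraries at 0 h set at a floor of 3 counts each, it was at least 7.31-fold higher at 48 h. In TC71 its counts were 3, 3 and 0, then 4, 9 and 3 (adjusted p = 0.213). TNFSF15 (TL1A) had 14, 17 and 18 counts in TC71 at 0 h and 47, 45 and 56 at 48 h, a change of 1.33 ± 0.25 (adjusted p = 5.02e-05), and at most 1 count in any EW8 library.

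**Figure D5:**
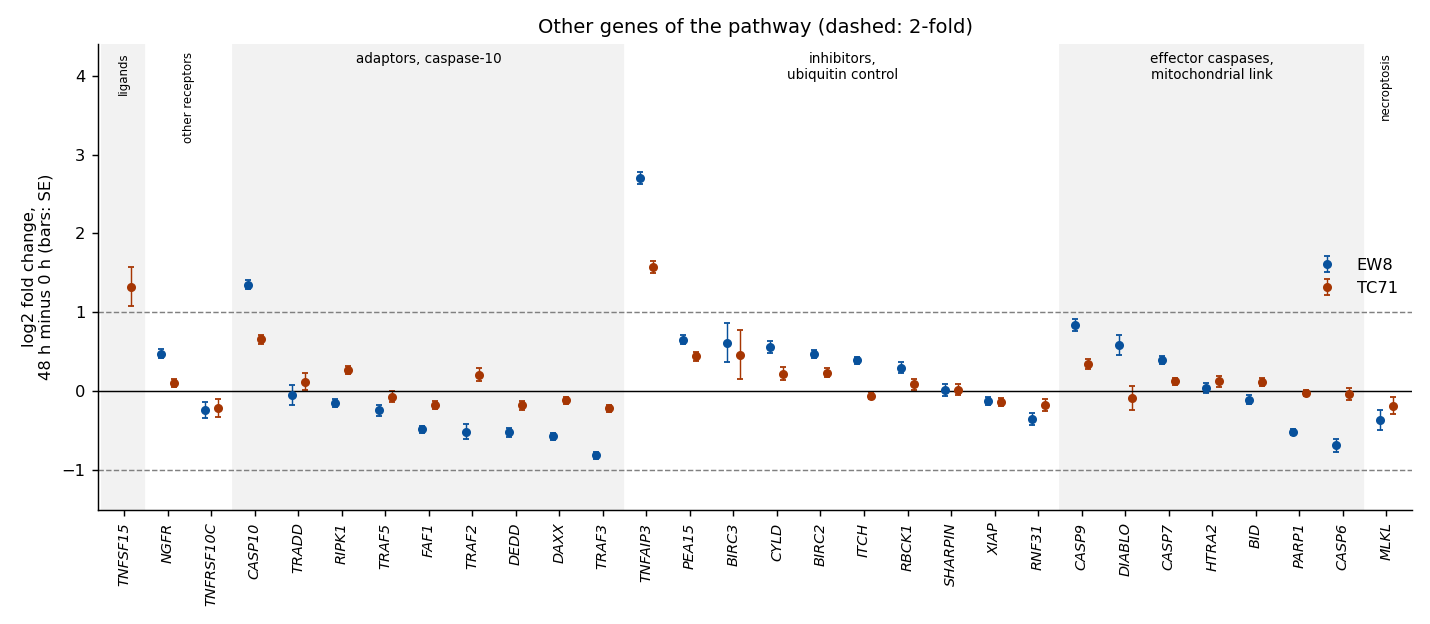
Log2 fold change from 0 h to 48 h (y axis, bars: standard error) of the other pathway genes (x axis, grouped by role) in EW8 and TC71, with dashed lines at 2-fold. Values with 3 counts or fewer in every 0 h library of the line are left out (TNF in both lines, TNFSF15 in EW8); TNFAIP3 is the 1 gene above the dashed line in both lines.

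TNFRSF21 had the widest range of group means of the 10 genes, 5.12 on the log2 scale over the 4 groups. The 5 genes of all those tested whose profile over the 12 libraries was most like it were MCTP2, WWC2, CHL1, PDGFRL and MIR646HG, with a mean absolute difference of 0.33 to 0.39 between mean-centred log2 CPM values. They were genes with counts in EW8 and few or none in TC71: CHL1 and MIR646HG had 0 counts in all 6 TC71 libraries, and MCTP2 had 1 count in 1 of them. WWC2 was the 1 of them with more than 51 counts in an EW8 library (190 to 356). That these genes stood higher in EW8 follows from the choice by profile. MCTP2, CHL1, PDGFRL and MIR646HG passed the filter on low counts only through EW8, where they are high. At 0 counts the log2 CPM is set by the prior count, a small constant added before taking logs. Part of the likeness therefore rests on that constant.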

How the data were processed

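Polyadenylated RNA of the EW8 and TC71 RRM1 knockout lines was sequenced in 12 libraries (TruSeq Stranded mRNA kit, paired-end reads). Per the submitters' processing notes and the methods of the study, reads were checked with FastQC and mapped to hg38 with STAR; the counting tool, its annotation and its strand setting are not given in the sources used here. The deposited table holds whole-number counts, unnormalized, with a column for every library. No gene in the table had a sum over the libraries below 21, and 0.665% to 0.774% of counts lay in genes without a name. All columns were mapped to their labels (0 were left over).

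Testing used edgeR 4.0.16 (R 4.3.3), with low genes dropped by filterByExpr at a minimum count of 10 and a total of 15, TMM factors, a robust quasi-likelihood fit over all 12 libraries, and Benjamini-Hochberg adjustment over all 16515 genes, and a gene was called at an adjusted p below 0.05 with more than a 2-fold change. Levels are counts per 1000000 with TMM factors, and intervals are the estimate ± 1.96 SE. The SE of a log2 change was its size divided by the square root of the F value of the quasi-likelihood test. It was not taken from the model, so the intervals are approximate. DESeq2 1.42.0, other scalings, filters, thresholds, a replicate block and leaving out each library were tried as alternatives. Replicates of a group differed by more than sampling noise (chi-square per gene between 1.98 and 9.16). The highest values, 7.57 and 9.16, came from the pairs with TC71 48 h replicate 3. The remaining pair of that group had 4.93. On data simulated for EW8, 97 of 100 genes with a 2-fold change and 100 of 100 with a 4-fold change were recovered among 16134 genes. Recovered means an adjusted p below 0.05 in the right direction, without the fold threshold, so these are not shares of genes called. By that criterion 6 unchanged genes passed as well. The simulation gave every gene the same spread and changed no gene with low counts, so it does not cover genes such as TNF. Exons came from GENCODE release 44 and promoter windows from RefSeq (GRCh38.p14).

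The 10 genes, the pathway list, the markers and the ratios were chosen with earlier results of these data known. A gene taken out of the pathway list is not reported here. The genes named are the 10, RRM1, every pathway gene called in either line and the 5 genes closest in profile to the member with the widest range; other pathway genes, and the 5 genes closest in profile to TNFRSF12A, were named after their values were seen.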

Additional observations from a re-analysis of the deposited data

Results flagged for a closer look

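The response of EW8 differed from that of TC71, by the test of the difference itself (the interaction contrast, EW8 minus TC71, adjusted p below 0.05), for 7 of the 10 genes. The log2 differences were 1.47 for TNFRSF12A, 0.67 for FAS, 0.55 for TNFRSF10B, 0.54 for CASP8, 0.38 for CFLAR, -0.50 for TNFRSF10A and -0.71 for TNFRSF10D. Among the pathway genes given with values in the text, the differences that passed were 1.13 for TNFAIP3, 0.69 for CASP10, 0.50 for CASP9 and 0.21 for PEA15, and, with the lower value in EW8, -0.72 for TRAF2, -0.65 for CASP6, -0.59 for TRAF3, -0.49 for PARP1, -0.46 for DAXX, -0.42 for RIPK1, -0.34 for DEDD and -0.31 for FAF1. TNF, with at most 3 counts in any 0 h library, is left out because its fitted change depends on the prior count. RRM1 itself differed by 2.23, and 48.1% of all genes passed the same contrast.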

How the results depend on the processing

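Of 40 gene results (10 genes in 4 comparisons), 34 kept their direction and their side of the calling threshold under every alternative that was run, and 845 of 856 single alternatives did so. Without the fold threshold, the genes called went from 2 to 8 in EW8, from 2 to 6 in TC71, from 1 to 8 between the lines at 0 h and from 1 to 7 for the difference of responses, and the pathway genes called from 3 to 26 in EW8 and from 2 to 15 in TC71. With the 2-fold threshold inside the test, 1 of the 10 genes and 1 pathway gene were called in TC71, and FAS there, at 1.13, was no longer past it. With at least 10 counts asked of every library, TNFRSF21 was left out and 0 of 9 genes were called between the lines at 0 h, and 2 pathway genes in EW8 and 1 in TC71. The direction turned for TNFRSF10B in TC71 with upper-quartile factors (-0.00033), and for CFLAR in TC71 (0.0089) and the TNFRSF1A difference of responses (0.066) with total counts alone. With 1 library left out, values lay on both sides of 0 for that TNFRSF1A difference (-0.067 to 0.016), TNFRSF21 in TC71 (-0.45 to 0.14) and FADD between the lines at 0 h (-0.18 to 0.043). On adjusted p alone, 32 of the 40 results stayed on their side of 0.05 under every alternative other than the 2-fold threshold inside the test, which asks another question and was left out of this count. Total counts alone moved the median of all genes from 0.03 to 0.16 in EW8, from -0.01 to -0.14 between the lines at 0 h and from 0.04 to 0.12 for the difference of responses.

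Replicates share a number across conditions but nothing that the labels name: same-numbered libraries had correlations of their deviations from the group means of -0.03 to -0.01 in EW8 and -0.12 to -0.02 in TC71, and 0 of 3 pairs in each line exceeded 0.1. A replicate block within each line gave 2, 2, 1 and 1 genes called in the 4 comparisons and 3 and 2 pathway genes, as without it. Under the block the adjusted p of TNFRSF21 in EW8 was 0.0567 and that of TNFRSF1A between the lines 0.0764. Depth limited TNF, TNFSF15 in EW8 and TNFRSF21 in TC71, each with few counts.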

Other observations

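The genes whose profile over the 12 libraries was most like that of TNFRSF12A were looked up after its values had been seen. The closest 5 were WDR63, LAMB3, DUSP6, INHBE and BEST1, with a mean absolute difference of 0.21 to 0.24 between mean-centred log2 CPM values. Their log2 changes at 48 h were 3.31 to 4.45 in EW8 and 1.66 to 2.57 in TC71, around the 3.83 and 2.36 of TNFRSF12A. Similar changes follow from choosing genes by their profile over the same libraries, so they are not a separate result. LAMB3 encodes a chain of the basement membrane protein laminin-332, DUSP6 a phosphatase of the kinase ERK, INHBE a subunit of activins and BEST1 a chloride channel.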
